A study of Mus musculus with 6 samples.

Results

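The genes described here are those of megalin-cubilin protein endocytosis in the mouse kidney. They were chosen by name, as the rows of the count table whose GENCODE M21 symbol, matched through the Ensembl identifier, is Lrp2, Cubn, Amn, Dab2, Clcn5, Fcgrt, Ocrl or Ctns. All 8 were found among the 55450 genes of the table, and all 8 were among the 16592 genes with enough counts to be tested. RNA of kidney tissue was sequenced from 6 male C57BL/6J wild type mice bought at 7 weeks of age. The 3 mice of day 0 were controls, labelled as given 20%PEG. The 3 mice of day 21 had received adenine (0.16 g/kg) with potassium oxonate (2.4 g/kg) by gavage every day, a treatment used to model kidney injury under raised uric acid, and the vehicle of their gavage was not stated. The study formed groups of 6 mice, and how the 3 sequenced per group were picked was not given in the sources used here.

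Filtered proteins are taken back from the primary urine by cells of the proximal tubule. Megalin, encoded by Lrp2, is a giant receptor of the LDL receptor family, and it works beside cubilin (Cubn), which has no membrane span of its own and is held at the apical surface by amnionless (Amn). The adaptor Dab2 links megalin to the clathrin coat, the chloride-proton exchanger ClC-5 (Clcn5) helps the endosomes to acidify, the Fc receptor FcRn (Fcgrt) saves albumin and IgG from breakdown, the phosphatase OCRL (Ocrl) turns over phosphoinositides on endosomes, and cystinosin (Ctns) exports cystine from the lysosome. Inherited loss of LRP2, CLCN5, OCRL, CTNS, CUBN or AMN in humans leads to protein loss in the urine.

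Of the 8 genes, 6 were lower on day 21, none was higher, and 2 did not pass the test, where a gene had to reach an adjusted p under 0.05 and to change by over 1.5-fold in edgeR's quasi-likelihood test. Over all genes tested, 15.5% were lower by the same rule and 19.6% were higher. The median log2 fold change was -0.80 over the 8 genes and 0.03 over all genes tested. The receptors Lrp2 and Cubn had the lowest values, Clcn5 followed, and Fcgrt, Amn and Dab2 were lower by less than 2-fold. In the 6 lower genes every day 21 mouse was below every day 0 mouse, which held for 26.4% of all genes tested.

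**Figure D1:**
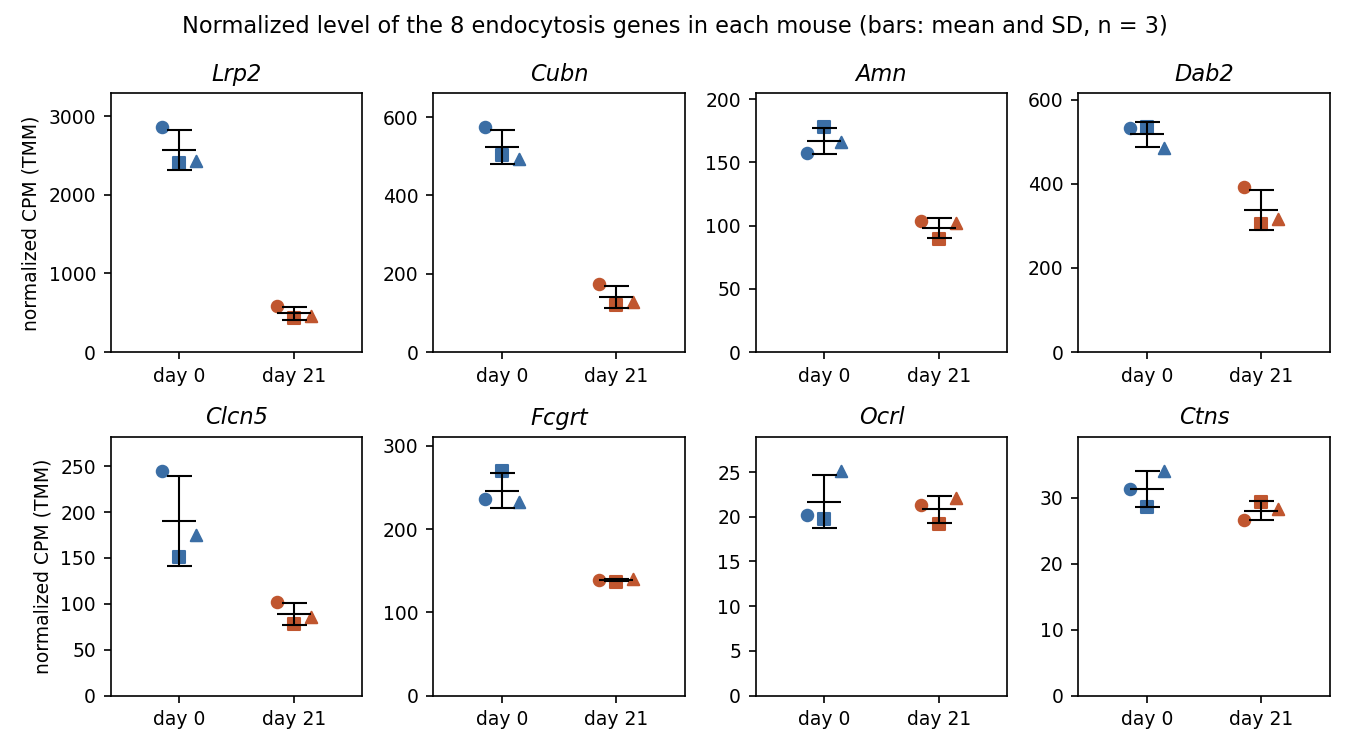
Scaled counts (CPM, by trimmed mean of M values) of the 8 genes in each of the 6 mice, on linear axes that start at 0. Circles, squares and triangles are replicates 1, 2 and 3, and the bars give the mean and SD of each group. Lrp2 fell from a mean of 2568 to 497 CPM and Cubn from 524 to 141 CPM, whereas the mice of both days overlap for Ocrl and Ctns.

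The libraries held 10963849 to 14333311 counts. Their scaling factors were 0.852 to 0.886 on day 0 and 1.12 to 1.17 on day 21, and mitochondrially encoded genes took 9.39 to 9.86% of counts on day 0 and 3.82 to 4.42% on day 21. Scaling by library size alone, without these factors, raised the median over all genes tested by 0.39, to 0.42 on the log2 scale. With it 3 of the 8 genes were called lower, Lrp2, Cubn and Clcn5, against 8.06% of all genes. Relative to the median of all genes, the log2 fold changes of the 8 genes were nearly the same under both scalings, at -2.41 and -2.40 for Lrp2 and at -0.80 under both for Amn.

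The receptor complex is described first, and the bases upstream of its 3 genes are shown. They come from RefSeq (GRCm38.p6), are written on the strand of the gene, and end before the start of the GENCODE gene. Capitals mark matches, on either strand, to 5 short motifs: the GC box GGGCGG, the CCAAT box CCAAT, the TATA box TATAAA, the E box CACGTG and the nuclear receptor core AGGTCA.
Lrp2: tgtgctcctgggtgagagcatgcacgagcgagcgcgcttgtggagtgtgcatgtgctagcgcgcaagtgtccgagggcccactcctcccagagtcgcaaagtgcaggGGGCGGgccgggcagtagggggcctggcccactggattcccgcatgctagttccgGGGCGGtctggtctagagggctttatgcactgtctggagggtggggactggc
Cubn: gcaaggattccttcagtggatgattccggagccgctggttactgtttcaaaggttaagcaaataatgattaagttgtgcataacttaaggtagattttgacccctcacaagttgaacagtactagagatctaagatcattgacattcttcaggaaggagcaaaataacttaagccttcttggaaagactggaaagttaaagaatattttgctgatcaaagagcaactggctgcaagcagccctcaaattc
Amn: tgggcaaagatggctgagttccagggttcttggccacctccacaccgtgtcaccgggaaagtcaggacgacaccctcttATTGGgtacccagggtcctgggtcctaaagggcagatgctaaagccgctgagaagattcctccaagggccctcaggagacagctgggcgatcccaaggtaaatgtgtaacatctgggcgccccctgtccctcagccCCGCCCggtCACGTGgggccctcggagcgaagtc
The Lrp2 bases lie at chr2:69586066-69586279 on the minus strand, those of Cubn at chr2:13491877-13492126 on the minus strand, and those of Amn at chr12:111270846-111271094 on the plus strand. In the full 250 bases before the RefSeq start, Lrp2 had 66.4% G and C and 18 CpG pairs, Amn 61.2% and 11, and Cubn 39.6% and 2, beside medians of 52.4% and 6 over 32851 such windows. Lrp2 held the GC box at 2 places, Amn held a GC box, a CCAAT box and an E box that overlap nowhere, and none of the 5 motifs was found in Cubn. Of all windows, 32.7% held the GC box, 33.8% the CCAAT box, 12.4% the TATA box, 6.02% the E box and 14% the nuclear receptor core. These matches describe letters in the sequence and were not tested against the expression values.

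Lrp2 (ENSMUSG00000027070.14, chr2:69424340-69586065, 79 exons in its longest transcript) had the largest fall of the 8 genes. It was read at 28503, 29236 and 23631 counts in the day 0 mice and at 8357, 7271 and 7595 counts in the day 21 mice. Scaled, this was 2858, 2410 and 2435 CPM against 591, 434 and 465 CPM. The lowest day 0 mouse was thus far above the highest day 21 mouse. The mean fell from 2568 ± 252 to 497 ± 83.1 CPM (SD, n = 3 each), with a log2 fold change of -2.37 (SE 0.15, 95% interval -2.71 to -2.03, edgeR adjusted p = 2.5e-06), which left 19.3% of the day 0 level.

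Cubn (ENSMUSG00000026726.10, chr2:13276338-13491813, 67 exons in its longest transcript) stood at 574, 504 and 494 CPM on day 0 and at 174, 121 and 128 CPM on day 21. Again the groups were well apart, and the first mouse of each day was the highest. Its mean went from 524 ± 43.8 to 141 ± 28.4 CPM (SD, n = 3 each), and the log2 fold change was -1.89 (SE 0.15, edgeR adjusted p = 8.3e-06). On the other strand, Gm13270 overlaps 368 of the exon bases of Cubn (2.46%). Whether the counting used strand was not given in the sources used here, so reads in these bases cannot be assigned with certainty. Gm13270 had 2334 counts over the 6 mice and a log2 fold change of -2.13 (SE 0.17, edgeR adjusted p = 6.8e-06).

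Amn (ENSMUSG00000021278.7, chr12:111271095-111276426), which carries cubilin to the apical membrane, fell much less than its partner. Its CPM was 157, 178 and 166 on day 0 and 103, 89.2 and 102 on day 21. No day 21 mouse reached the day 0 range. The mean fell from 167 ± 10.3 to 98.3 ± 7.91 CPM (SD, n = 3 each), a log2 fold change of -0.76 (SE 0.11, edgeR adjusted p = 3.0e-04) that left 58.9% of the day 0 level. With library size alone the value was -0.38 and missed the fold threshold.

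Dab2 (ENSMUSG00000022150.16, chr15:6299788-6440712), the adaptor of megalin, had the smallest change among the genes that passed. It was at 534, 534 and 484 CPM on day 0 and at 391, 304 and 317 CPM on day 21, so that all day 21 mice were lower and the first of them stood above the other two. The mean was 517 ± 28.9 CPM on day 0 and 337 ± 47.4 CPM on day 21 (SD, n = 3 each), with a log2 fold change of -0.62 (SE 0.13, 95% interval -0.90 to -0.34, edgeR adjusted p = 0.0026). This lies close to the threshold of 1.5-fold, at 1.53-fold, and it missed that threshold without replicate 2 (-0.55) or replicate 3 (-0.57) of day 21. Dab2 is expressed by macrophages as well as by tubule cells, and the markers of macrophages and monocytes rose in these kidneys, with values given further on. On the other strand, Gm18888 shares 211 of the exon bases of Dab2 (2.87%) and had 42 counts in all.

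Clcn5 (ENSMUSG00000004317.14, chrX:7153810-7319358) encodes the exchanger of the early endosome that is lost in Dent disease. Its values were 245, 151 and 175 CPM on day 0 and 102, 78.1 and 85.8 CPM on day 21. Day 0 was the more spread group, with its first mouse highest, and still lay wholly above day 21. The mean went from 190 ± 49.0 to 88.5 ± 12.0 CPM (SD, n = 3 each), with a log2 fold change of -1.10 (SE 0.18, edgeR adjusted p = 6.6e-04).

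Fcgrt (ENSMUSG00000003420.8, chr7:45092990-45103851), whose product binds albumin and IgG in acid endosomes, was at 237, 270 and 233 CPM on day 0 and at 140, 137 and 140 CPM on day 21. The day 21 mice were nearly alike. The mean went from 247 ± 20.7 to 139 ± 1.63 CPM (SD, n = 3 each), with a log2 fold change of -0.83 (SE 0.11, edgeR adjusted p = 1.4e-04), and with library size alone it was -0.44 and missed the fold threshold.

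The phosphatase Ocrl (ENSMUSG00000001173.15, chrX:47912387-47965868), mutated in Lowe syndrome, had 20.2, 19.8 and 25.1 CPM on day 0 and 21.3, 19.1 and 22.1 CPM on day 21. The cystine exporter Ctns (ENSMUSG00000005949.9, chr11:73183596-73199042) had 31.4, 28.6 and 34.1 CPM on day 0 and 26.6, 29.4 and 28.2 CPM on day 21. For both genes the mice of the groups overlapped in scaled CPM, though not in the length-scaled levels given further on. The log2 fold change of Ocrl was -0.06 (SE 0.14, 95% interval -0.38 to 0.26, edgeR adjusted p = 0.771) and that of Ctns was -0.16 (SE 0.12, 95% interval -0.43 to 0.11, edgeR adjusted p = 0.316). These intervals exclude a fall of 1.5-fold, a log2 value of -0.58, under the main scaling, and with library size alone the values were 0.33 and 0.23.

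**Figure D2:**
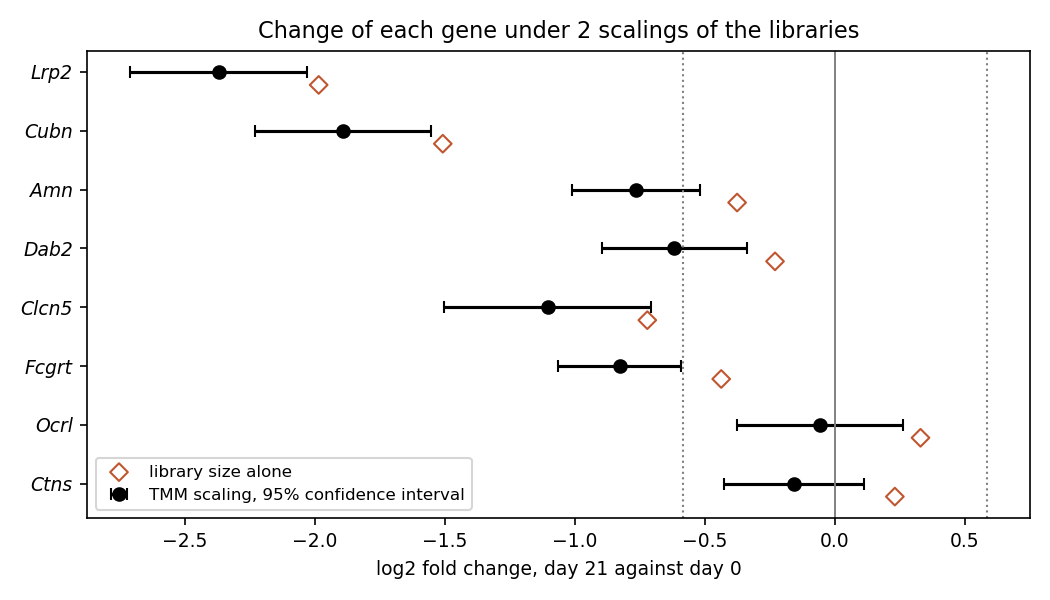
Log2 fold change of the 8 genes, day 21 against day 0, under the main scaling (black, with 95% intervals) and with library size alone (open diamonds), with a line at 0 and dotted lines at the threshold of 1.5-fold. Estimates run from -2.37 for Lrp2 to -0.06 for Ocrl, and with library size alone every gene lies further to the right by about the shift of all genes.

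Within day 21, replicate 1 was the highest mouse for 5 of the 8 genes (Lrp2, Cubn, Amn, Dab2 and Clcn5) and replicate 2 the lowest for 7 of the 8. Within day 0, replicate 1 was highest for Lrp2, Cubn and Clcn5 and replicate 2 for Amn, Dab2 and Fcgrt.

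To compare genes with each other, length-scaled levels (TPM) were computed within each mouse from the counts and the merged exon length. TPM does not use the scaling factors of the main test, so its differences between days are not those of the scaled CPM. In TPM, Dab2 and Clcn5 overlapped between the days. Ocrl (at most 5.86 on day 0, at least 6.40 on day 21) and Ctns (at most 22.2, at least 24.1) were higher on day 21 without overlap. On day 0, Lrp2 led at 335 ± 47.1 TPM, followed by Fcgrt at 254 ± 9.33, Amn at 197 ± 3.31, Dab2 at 153 ± 9.97 and Cubn at 76.4 ± 9.38 TPM (SD, n = 3). Clcn5 at 36.4 ± 10.96, Ctns at 20.2 ± 2.57 and Ocrl at 4.98 ± 0.808 TPM were the lowest (SD, n = 3), and in this order every gene lay above the next in all mice, with no overlap of neighbours. On day 21 the order had changed, with Lrp2 behind 3 of the other genes. Fcgrt then led at 207 ± 2.84 TPM, and Amn at 167 ± 11.8, Dab2 at 144 ± 17.8 and Lrp2 at 93.0 ± 14.0 TPM came next (SD, n = 3). Below these, Cubn at 29.5 ± 5.44, Ctns at 26.0 ± 1.71 and Clcn5 at 24.2 ± 2.89 TPM overlapped as neighbours, and Ocrl was last at 6.88 ± 0.461 TPM (SD, n = 3). Amn and Dab2 overlapped too, although Amn was the higher in each of the 3 mice. By mean TPM among the genes tested, Lrp2 moved from position 342 to 1704 and Cubn from 1698 to 5260, while Fcgrt moved from 471 to 670.

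**Figure D3:**
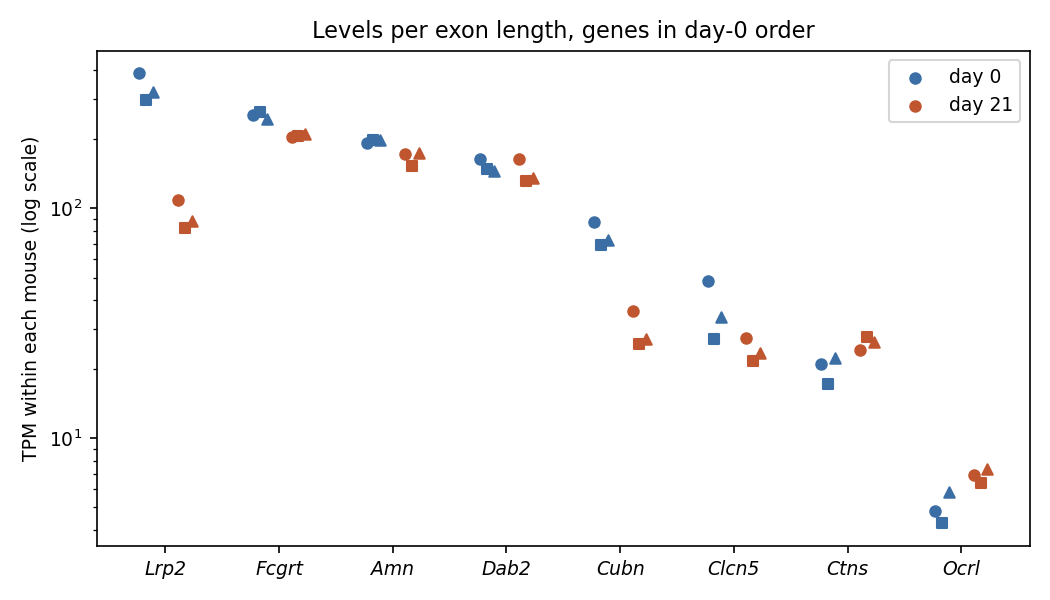
Length-scaled levels (TPM) within each mouse for the 8 genes, in their day 0 order, on a log axis, with a point for each mouse (day 0 blue, day 21 red). Lrp2 is the highest of the 8 on day 0, at a mean of 335 TPM, and on day 21, at 93.0 TPM, it lies below Fcgrt, Amn and Dab2.

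Ratios of genes within a mouse do not depend on how libraries are scaled, so the other 7 genes were set against Lrp2 in each mouse. For every 100 counts of Lrp2 there were 20.4 of Cubn on day 0 and 28.3 on day 21, and the log2 ratio moved from -2.29 ± 0.03 to -1.82 ± 0.05 (SD, n = 3 each). Cubn therefore fell nearly with Lrp2, with a ratio that rose 1.39-fold. Dab2 went from 20.2 to 68.1 counts per 100 of Lrp2, a 3.37-fold rise, and Amn from 6.56 to 20.0, a 3.06-fold rise. Fcgrt rose 2.94-fold against Lrp2 and Clcn5 2.46-fold, while Ctns rose 4.66-fold and Ocrl 5.01-fold. For all 7 ratios the mice of the groups did not overlap. The two-sided exact permutation test gave p = 0.1 (0.1 after Benjamini-Hochberg adjustment over the 7), the smallest that 3 mice against 3 allow. Lrp2 had the largest fall of the genes described here (log2 fold change -2.37). The ratio of each other gene to Lrp2 therefore had to rise. The share of all genes tested whose ratio to Lrp2 rose without overlap is not given here. The shared direction of the 7 ratios and their test thus add nothing beyond the fall of Lrp2. The counts of these ratios are not divided by gene length, so that they show the change between days and not which gene is the more abundant.

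**Figure D4:**
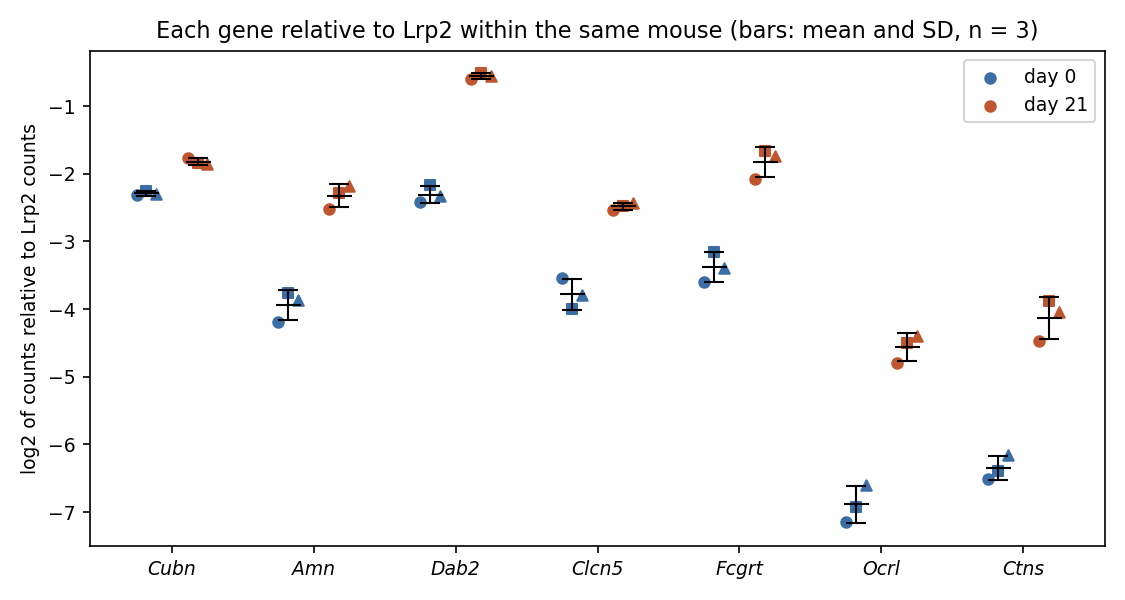
Log2 ratio of each of the other 7 genes to Lrp2 within each mouse, by day, with bars for the mean and SD of 3 mice. All 7 ratios are higher on day 21 without overlap, by 0.47 for Cubn and by 1.30 to 2.33 for the others. That all of them rise follows from dividing by Lrp2, the gene with the largest fall among those described here.

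The genes whose profile over the 6 mice was closest to that of Lrp2 were sought among 13141 genes with a mean of at least 50 counts, by the root mean square difference of log2 CPM after each gene was centred on its day 0 mean. They were Pcx (pyruvate carboxylase, 0.141), F13b (the B chain of coagulation factor XIII, 0.145), Ugt3a2 (a UDP glycosyltransferase, 0.145), Hsd3b2 (a steroid dehydrogenase, 0.148) and Cyp2j11 (a cytochrome P450, 0.164). Their log2 fold changes ran from -2.46 to -2.34, near that of Lrp2 by the way these genes were picked. Cubn was in position 83 of this order (0.337), Clcn5 in position 881, Fcgrt in position 1394, Amn in position 1530 and Dab2 in position 1955. The 6 mice are the same libraries for all these genes, and likeness of profile carries no test here.

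Markers of the proximal tubule, the segment that uses this pathway, were present in all mice, none of them at 0. All 16 of 16 were lower on day 21, with a median log2 fold change of -2.10 (range -3.33 for the phosphate transporter Slc34a3 to -1.34), and their summed level was 30951 to 43728 CPM on day 0 and 6111 to 8590 CPM on day 21. The fall was larger than that of Lrp2 in 6 of the 16 markers, larger than that of Cubn in 10, and larger than that of each of the other 6 genes in all 16. In RNA of whole kidney, fewer proximal tubule cells and less RNA of a gene per cell cannot be told apart.

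Other cell types moved as well. Markers of loop, distal tubule and collecting duct were lower in 8 of 10 cases (summed 7284 to 8379 CPM on day 0 and 4219 to 4847 CPM on day 21), and Pvalb, a marker of the distal convoluted tubule, had 214, 317 and 122 counts on day 0 and 0, 0 and 1 counts on day 21. Those of podocytes were lower in 3 of 6 (421 to 675 against 330 to 382 CPM) and those of endothelium in 2 of 6 (440 to 510 against 207 to 354 CPM, largest fall in Kdr at -1.33). Markers of macrophages and monocytes were higher in 9 of 9 cases (166 to 215 CPM on day 0, 965 to 1294 CPM on day 21, largest rise in Fcgr1 at 3.75), those of fibroblasts in 8 of 8 (273 to 398 against 1205 to 2266 CPM, largest rise in Col1a1 at 4.35), and those of the injured tubule, in 6 of 6 (538 to 1676 against 19473 to 23525 CPM, largest rise in Havcr1 at 8.07). Of 7 T and B cell markers 5 could be tested and all 5 were higher (summed 3.81 to 10.2 against 23.4 to 24.5 CPM, largest rise in Cd2 at 2.15), with the B cell marker Ms4a1 at 0 in 1 mouse of each day. Values of single markers are log2 fold changes. Beside these marker counts, 15.5% of all genes tested were lower and 19.6% higher. The part of any of these shifts in the values of the 8 genes was not tested.

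Around the 8 genes, 57 others of the apical endocytic machinery were listed, and all were tested. Of these 57, 8 were lower, 2 were higher and 47 did not pass, with a median of -0.31. At the 1.5-fold threshold the share called lower was not above the 15.5% of all genes tested, and the share called higher was below 19.6%. At an adjusted p under 0.05 whatever the fold, 25 of the 57 were lower, a larger share than the 21.7% of all genes tested. There, 5 of the 57 were higher, a smaller share than the 23.9% of all genes tested. Among the 17 coat, adaptor and receptor helper genes the median was 0.01. Lrpap1, whose product RAP escorts megalin through the endoplasmic reticulum, had the largest fall there, from 499, 673 and 589 CPM on day 0 to 241, 200 and 225 CPM on day 21 (log2 fold change -1.40, SE 0.14, edgeR adjusted p = 2.5e-05). The groups were far apart. Myo6, the motor that carries vesicles from the brush border inward, was at -0.62 (SE 0.10, edgeR adjusted p = 8.6e-04), and Gipc1, a scaffold that binds megalin and this motor, rose from 53.5 ± 5.92 to 90.3 ± 2.17 CPM (SD, n = 3 each; log2 fold change 0.75, SE 0.11, edgeR adjusted p = 3.6e-04).

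Among 18 genes of early and recycling endosomes, 1 was higher and 1 was lower, beside 19.6% higher and 15.5% lower of all genes tested. Rab32, a small GTPase of lysosome-related organelles, rose from 10.2 ± 1.48 to 28.6 ± 1.44 CPM (SD, n = 3 each; log2 fold change 1.49, SE 0.15, edgeR adjusted p = 3.0e-05). Inpp5b, the closest relative of Ocrl, went from 105, 114 and 107 CPM to 66.7, 42.8 and 66.5 CPM (log2 fold change -0.89, SE 0.16, edgeR adjusted p = 0.0014), so that its groups were apart where those of Ocrl overlapped.

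Of 22 subunits of the vacuolar proton pump, which acidifies the endosome, 5 were lower and none was higher. Of all genes tested, 15.5% were lower and 19.6% higher. The list was not split by cell type, and in which cells its subunits fell was not tested. Atp6v1c2 had the largest fall, from 24.2 ± 4.56 to 9.57 ± 3.28 CPM (SD, n = 3 each; log2 fold change -1.34, SE 0.24, edgeR adjusted p = 0.0013). The others were Atp6v1a (-0.90), Atp6v0a4 (-0.88), Atp6v1b2 (-0.85) and Atp6v1g3 (-0.78). Atp6v1b1 (-0.36, edgeR adjusted p = 0.104) and Atp6v0d2 (0.14, edgeR adjusted p = 0.584) were among the 17 subunits that did not pass.

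In the chloride channel and exchanger family, the list held 10 genes, the accessory subunits Ostm1 and Bsnd among them. Of the 9 tested, 3 were lower and none higher, beside 15.5% lower and 19.6% higher of all genes tested. Clcn3, another endosomal exchanger, went from 163, 196 and 195 CPM to 95.5, 79.3 and 85.6 CPM (log2 fold change -1.09, SE 0.12, edgeR adjusted p = 5.7e-05), beside -1.10 for Clcn5. Clcn6 (-0.91), of late endosomes, was also lower. Clcn7, the exchanger of lysosomes, had a log2 fold change of -0.08 (SE 0.10, edgeR adjusted p = 0.559), and with library size alone it was 0.31.

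In the LDL receptor family, relatives of Lrp2 were found on both sides. Of 11 relatives tested, 3 were lower and 2 were higher, beside 15.5% lower and 19.6% higher of all genes tested. Their median was -0.11. Lrp1, a large relative of megalin found on macrophages and fibroblasts, was at 61.5, 50.1 and 84.9 CPM on day 0 and at 169, 111 and 144 CPM on day 21 (log2 fold change 1.11, SE 0.20, edgeR adjusted p = 0.0014). Lrp8 (1.39), a reelin receptor, was the other gene that was higher, at 1.64 ± 0.843 CPM on day 0 and 4.28 ± 0.983 CPM on day 21 (SD, n = 3 each), and its call was lost without day 0 replicate 2 (1.14) or day 21 replicate 1 (1.24). Lrp4 (-1.01), Vldlr (-0.68) and Lrp6 (-0.62) were lower.

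Of 12 genes of ligands and partner chains, 10 were tested. Among these, 5 were higher and 2 were lower, beside 19.6% higher and 15.5% lower of all genes tested. B2m, the light chain of FcRn and itself a filtered ligand, was at 375, 373 and 331 CPM on day 0, and its mean rose from 360 ± 25.1 to 1511 ± 75.7 CPM (SD, n = 3 each; log2 fold change 2.07, SE 0.12, edgeR adjusted p = 1.4e-06). Fcgrt and B2m, which form FcRn together, thus moved in opposite directions, and B2m is also the light chain of MHC class I. Lcn2, a filtered carrier of siderophores that injured tubules make, had the largest rise, from 6.58 ± 1.04 to 510 ± 48.8 CPM (SD, n = 3 each; log2 fold change 6.27, SE 0.16, edgeR adjusted p = 4.7e-08). Clu (3.53), Gc (1.69), which encodes the vitamin D binding protein, and Cst3 (0.64) were also higher. Tcn2, the carrier of vitamin B12, was lower (-1.40), and Alb had 70, 92 and 61 counts on day 0 and 19, 17 and 10 counts on day 21 (log2 fold change -2.82, SE 0.32, edgeR adjusted p = 6.8e-05). These are transcripts made in the kidney and say nothing of the protein that was filtered. The gene of intrinsic factor, listed as Gif, was at 0 in all mice.

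Of 10 tubular transcription factors, 5 were lower and 2 were higher, beside 15.5% lower and 19.6% higher of all genes tested. Hnf4a, a factor of the mature proximal tubule, fell from 1232 ± 130 to 506 ± 73.7 CPM (SD, n = 3 each; log2 fold change -1.28, SE 0.14, edgeR adjusted p = 5.3e-05). Ppara (-1.97), Rxra (-0.82) and Hnf4g (-0.68) were lower as well, and Cebpb (0.83) was higher. The call of Cebpb was lost without day 0 replicate 2 (0.74) or day 21 replicate 2 (0.71).

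**Figure D5:**
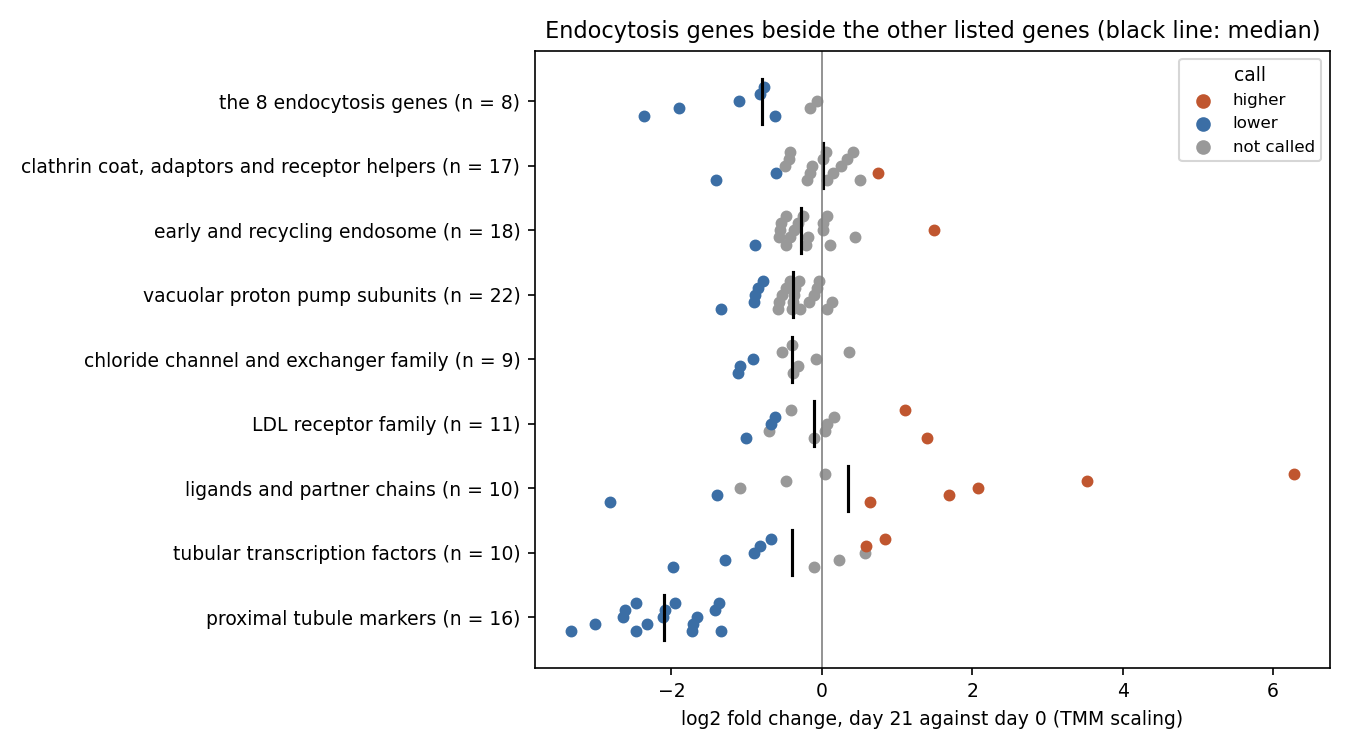
Log2 fold change, day 21 against day 0, of every gene tested in each list, with a black line at each list's median, blue points for genes called lower, red for genes called higher and grey for genes not called. The 16 proximal tubule markers lie between -3.33 and -1.34, the 8 endocytosis genes between -2.37 and -0.06, and the 22 pump subunits have a median of -0.39.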

How the data were processed

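RNA of kidney tissue was sequenced in paired reads of 150 bases from 3 mice of day 0 and 3 of day 21. The deposited table held raw whole-number counts per gene and library, which the authors made from reads aligned to the mouse genome. The submitters' processing notes name TopHat and mm10, and the counting program and its strand setting are not given in the sources used here. All count columns matched a sample. Of 55450 genes, 28536 had no count. The libraries held 10963849 to 14333311 counts, and 3 counts corresponded to 0.209 to 0.274 CPM.

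Counts of genes that passed filterByExpr (16592) were scaled by trimmed mean of M values (TMM) and fitted with edgeR 4.0.16 in R 4.3.3 (quasi-likelihood test, Benjamini-Hochberg adjustment over all genes tested, no block, biological coefficient of variation 16.2%). A gene was called where its adjusted p was under 0.05 and its change over 1.5-fold. Ratios to Lrp2 used counts plus 0.5. Alternatives used DESeq2 1.42.0, limma 3.58.1 (voom), other scalings, filters and thresholds, a replicate block, and each mouse left out. In simulated counts with 200 genes changed 3-fold, edgeR called 169 of them and 17 unchanged genes. The simulation changed as many genes up as down, and far fewer than were called in the data. It therefore does not check the scaling of the libraries. Replicates differed by more than sampling noise (chi-square per gene 7.17 to 25.7). No source says more of them than that they are different samples of a group. Each sample is treated here as a different mouse. The edgeR p-values set the difference between days against the spread between samples of a day, estimated with help from all genes tested. Positions are those of GENCODE M21 on GRCm38 (mm10).

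The 8 genes and the lists were chosen with earlier results of these data known. The text names the 8 genes, the called gene with the largest rise and with the largest fall in each list, B2m, Alb, Inpp5b, Clcn3, Clcn7, Lrp1 and Hnf4a, and the 5 genes closest to Lrp2. Other genes of these lists were named after their values were seen, and some genes that the rule takes in are not reported here.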

Additional observations from a re-analysis of the deposited data

How the results depend on the processing

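Of the 8 endocytosis genes, 3 were called lower in place of 6 with library size alone and where an adjusted p under 0.01 and over 2-fold change were required, and 5 to 6 with a mouse left out, when 0 were called higher. With library size alone the log2 fold changes of Amn (-0.38), Dab2 (-0.23) and Fcgrt (-0.44) no longer passed, and those of Ocrl (0.33), Ctns (0.23) and Clcn7 (0.31) turned positive, as the construction of that setting raises all genes by 0.39. With upper quartile scaling Dab2 (-0.53) no longer passed, and Ocrl (0.028) and Clcn7 (0.0067) turned positive. With a mouse left out Dab2 ran from -0.74 to -0.55 and Ocrl from -0.13 to 0.042, positive without day 0 replicate 3 (0.042) or day 21 replicate 2 (0.0013). Of the 57 machinery genes, 8 were called lower and 2 higher under the main scaling. With library size alone it was 2 and 7, beside 1338 and 5985 of all 16592 genes tested. At any fold it was 25 and 5 of the 57, a larger share lower than the 21.7% and a smaller share higher than the 23.9% of all genes tested. The stricter threshold gave 2 and 1, and its share over all genes is not given here. With a mouse left out, 8 to 12 were lower and 2 to 3 higher. Lrp2, Cubn and Clcn5 passed under all alternatives of scaling, filter and tool and with each mouse left out, Lrp2 between -2.51 and -1.99, Cubn between -2.07 and -1.51 and Clcn5 between -1.25 and -0.72.

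Same-numbered mice of the 2 days had correlations of -0.019, 0.165 and 0.09 in their deviations from the group means, so the numbers were not taken as pairs. With the replicate number as a block, the log2 fold change was -2.38 for Lrp2, -1.91 for Cubn, -0.77 for Amn, -0.62 for Dab2, -1.08 for Clcn5, -0.82 for Fcgrt, -0.05 for Ocrl and -0.16 for Ctns, 6 of the 8 were called lower, and no call among them changed. The number of 3 mice per day limits every comparison.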
